A study of Homo sapiens with 8 samples.

Results

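PCNA, the 5 subunits of its loader (RFC1, RFC2, RFC3, RFC4 and RFC5) and 4 enzymes that finish Okazaki fragments (RNASEH2A, DNA2, FEN1 and LIG1) were followed across all treatments. These 10 genes, of the 60230 in the count table, were chosen by gene symbol for their role in lagging-strand replication. RNA was measured in HepG2 cells, an established human hepatocellular carcinoma line, in a derivative that overexpresses the drug-metabolizing enzyme CYP3A4 in every group, controls included. The study asked whether compounds used in plastics harm such liver cells. The 4 groups, with 2 samples each, were control cells given 0.2% DMSO and cells given compound 4, compound 5 or compound 6, each harvested after 24 h. Compounds 4 and 6 are both methylene-bridged bisphenols, with tert-butyl groups on the rings of compound 4 and cyclohexyl groups on those of compound 6, and compound 5 is an ethane-bridged bisphenol with di-tert-butyl rings. Each compound was given at its own half-maximal inhibitory concentration (IC50), so the doses differed between compounds. One overexpressing line was used, and no untreated or parental cells were analysed here. In each group the labels mark one sample as day 1 and the other as day 2, the same day numbers in all 4 groups, and do not say whether these were separate cultures, so p-values measure the spread between these samples, which may be technical.

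PCNA is a ring that encircles DNA and holds the replicative polymerases on their template. Replication factor C, the loader built from the RFC subunits, opens the ring with energy from ATP and closes it around the primer end. On the lagging strand the loaded ring also positions the enzymes that remove the RNA primer, trim the displaced flap and seal the nick, so that short Okazaki fragments become a continuous strand. All of these genes are most active in cells that replicate their DNA.

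Because these genes are known to be expressed together in S phase, their promoters were searched for the letters bound by E2F factors, which drive S-phase genes. RefSeq promoters (250 bases before to 50 after a start site, GRCh38.p14) were found for 9 of the 10 genes, with a pair of start sites for PCNA. The letters TTTCCCGC, TTTCGCGC, TTTGCCGC or TTTGGCGC, on either strand, were present in 3 of these 10 promoters and in 3.3% of all 35116 promoters. The 3 were those of PCNA, LIG1 and RFC3, and their matches are shown in capitals within 50 bases of the gene's own strand, at chr20:5126653-5126702 (minus strand) for PCNA, chr19:48170430-48170479 (minus strand) for LIG1 and chr13:33818073-33818122 (plus strand) for RFC3.
PCNA: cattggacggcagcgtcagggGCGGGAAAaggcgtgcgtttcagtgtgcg
LIG1: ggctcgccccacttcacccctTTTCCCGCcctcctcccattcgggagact
RFC3: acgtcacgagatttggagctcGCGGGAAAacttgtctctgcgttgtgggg
The match began 59 bases before the start site in PCNA, 114 in LIG1 and 55 in RFC3. All 3 held the same 8 letters, on the same strand of the gene in PCNA and RFC3 and on the other strand in LIG1. CCAAT, on either strand, was present in 5 of the 10 promoters and in 34.6% of all, and TTTGAA, the core of the cell cycle homology region, in 0 of 10 and in 15.2% of all. These are matches of letters and not measured binding sites.

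The libraries held between 9472261 and 13308975 counts on genes. Levels are given as CPM, counts scaled to the library total and corrected by TMM, a factor per library for differences in composition. The marker levels and the floor of 3 counts below are scaled to the library total alone, without TMM. The TMM factors ran from 0.958 in the compound 5 samples to 1.039 in DMSO replicate 2. At these depths 3 counts corresponded to between 0.225 and 0.317 CPM. All 10 genes passed the filter on low counts and lay far above that floor. Hepatocyte genes were abundant in all 8 samples, with ALB, the gene of albumin, between 12490 and 18860 CPM. PTPRC and CD3E of the leukocyte list, DCN and LUM of the fibroblast list and KDR of the endothelial list had 0 counts in all 8. Other members of these lists were detected, among them CD68 (28.2 to 57.4 CPM), PDGFRB (1.71 to 8.61), PECAM1 (0.30 to 1.03) and VWF (0.34 to 0.90). Other markers on these lists moved with treatment. The 5 fibroblast markers, nearly all of whose sum was PDGFRB, summed to 1.71 to 2.71 CPM in the controls. The sums were 6.29 to 8.78 under compound 4, 2.56 to 4.39 under compound 5 and 3.91 to 5.48 under compound 6. PDGFRB was called higher (edgeR adjusted p under 0.05) with compound 4, and the other 4 had under 3 counts in all 8 samples. The 3 cholangiocyte markers summed to 227 to 247 CPM in the controls and 254 to 304 under the compounds, and 1 was called higher with each compound. The 5 leukocyte markers, nearly all of whose sum was LYZ, the gene of lysozyme, summed to 2502 to 3093 CPM in the controls and 1809 to 2730 under the compounds, with 2 called higher with compound 4, 1 lower with compound 5 and 1 higher with compound 6. The 4 endothelial markers summed to 0.938 to 1.31 CPM in the controls, against 1.55 to 1.64 under compound 4, 0.827 to 1.23 under compound 5 and 1.9 to 2.07 under compound 6, and none of them passed the filter on low counts. The 10 hepatocyte markers included CYP3A4, which this line overexpresses. They summed to 41250 to 42390 CPM in the controls, against 31110 to 31390 under compound 4, 31860 to 31980 under compound 5 and 31890 to 38500 under compound 6. This sum was lower in every treated group, as the replication genes were. Single markers went both ways, with 3 called lower and 1 higher with compounds 4 and 5 each, and 2 lower with compound 6. CYP3A4 was 1 of those called with compound 5. With the replicate block, 0 hepatocyte and 0 leukocyte markers were called with compound 6. The part of these marker sums in the results was not tested. In such bulk RNA, fewer replicating cells and less of each transcript per cell cannot be told apart.

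With every compound, all 10 genes had a lower mean level than in DMSO. A gene was called when the quasi-likelihood test of edgeR gave a Benjamini-Hochberg adjusted p under 0.05 over all 13404 genes tested. By this rule 6 of the 10 genes fell with compound 4, where 5.42% of all tested genes were called lower. With compound 5, 7 of 10 fell, where 14.2% of all tested genes were, and with compound 6, 2 of 10 fell, where 1.6% were. Both treated samples lay below both DMSO samples for 10 of 10 genes with compound 4 (27.1% of all tested genes), for 10 of 10 with compound 5 (37.3%) and for 9 of 10 with compound 6 (26.6%). The median log2 fold change of the 10 genes was -0.60, -0.61 and -0.55 with compounds 4, 5 and 6, beside medians of 0.00, -0.03 and 0.00 over all tested genes. The 3 comparisons share the DMSO samples, so they are not independent of each other. LIG1 was called with all 3 compounds and RFC4 with none.

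**Figure D1:**
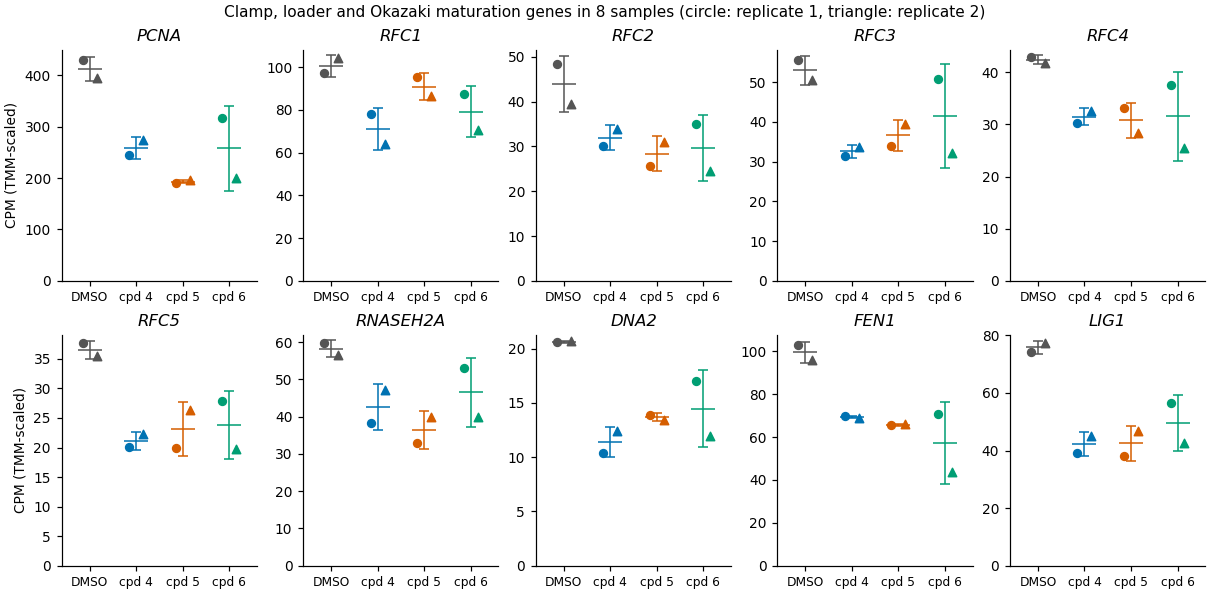
Level of each of the 10 genes (CPM, linear axis from 0) in the 8 samples by treatment (cpd, compound), with circles for replicate 1, triangles for replicate 2, horizontal marks for the mean and bars for the SD (n = 2). Treated samples lie below both DMSO samples in every panel except RFC3, where replicate 1 of compound 6 (50.7 CPM) sits level with a DMSO sample (50.5 CPM), and replicate 2 of compound 6 is below replicate 1 in all 10 panels.

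The clamp itself, with compound 5, showed the largest change of the 10 genes with any compound. PCNA (ENSG00000132646, chromosome 20, 5114953 to 5126626, minus strand; coordinates of genes are those of GENCODE 29 on GRCh38) measured 429.5 and 395 CPM in the controls, against 244 and 274 under compound 4, 191 and 196 under compound 5 and 317 and 199.8 under compound 6. All 6 treated samples were below both DMSO samples, and both compound 5 samples were below every other sample. PCNA fell with compound 5, with a log2 fold change of -1.09 (SE 0.18, edgeR adjusted p = 0.0016), a level 53.1% lower than in DMSO. It also fell with compound 4, by 37.2% (log2 fold change -0.67, SE 0.18, edgeR adjusted p = 0.032). The value for compound 6 was close to that for compound 4 (log2 fold change -0.68, SE 0.18). It did not pass the cutoff in edgeR (adjusted p = 0.057), although DESeq2 called it (adjusted p = 0.0020). The pseudogene PCNAP3 shares 3.4% of the 31-base words (31-mers) of the PCNA transcripts. PCNAP3, PCNAP1 and PCNAP4 had 0 counts in all 8 samples.

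**Figure D2:**
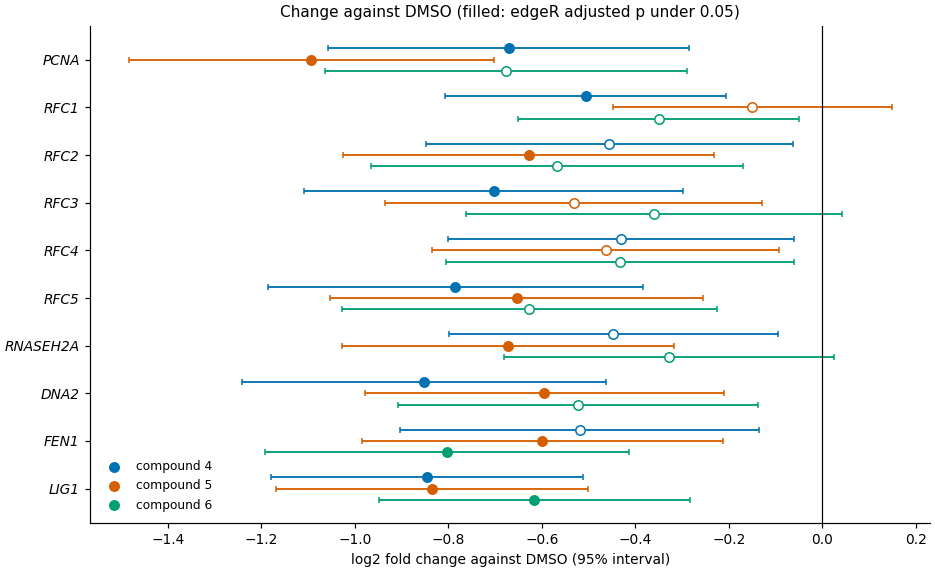
Log2 fold change of each gene against DMSO (horizontal axis) for the 3 compounds, with bars for the 95% interval of the edgeR fit and filled points for an adjusted p under 0.05. All 30 points lie left of 0, PCNA with compound 5 lies farthest left (-1.09), and the interval of RFC1 with compound 5 (-0.45 to 0.15) includes 0, as do those of RFC3 and RNASEH2A with compound 6.

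Of the loader subunits, RFC5 was called with 2 compounds, RFC1, RFC2 and RFC3 with 1 each and RFC4 with none. RFC1 (ENSG00000035928, chromosome 4, 39287456 to 39366375, minus strand) encodes the large subunit, which is specific to the PCNA loader, and measured 97.1 and 104 CPM in the controls, against 77.9 and 64.0 under compound 4, 95.2 and 86.4 under compound 5 and 87.6 and 70.7 under compound 6. The compound 5 mean was the closest to DMSO, although replicate 1 of compound 6 lay above replicate 2 of compound 5, and no treated sample overlapped with DMSO. RFC1 fell with compound 4 (log2 fold change -0.51, SE 0.14, edgeR adjusted p = 0.036), while its values of -0.15 for compound 5 and -0.35 for compound 6 (SE 0.14 both) were not called (edgeR adjusted p = 0.436 and 0.179). RFC1 was the member whose log2 CPM was least correlated with the mean of all 10 over the 8 samples (Pearson r = 0.685, against 0.889 to 0.969 for the other members), as a description of samples that share treatments and libraries.

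RFC2, RFC3, RFC4 and RFC5 are the small ATPase-type subunits, which are shared with the alternative loaders. RFC5 (ENSG00000111445, chromosome 12, 118013588 to 118033130, plus strand) measured 37.6 and 35.4 CPM in the controls, against 20.1 and 22.2 under compound 4, 19.9 and 26.4 under compound 5 and 27.8 and 19.7 under compound 6, with no overlap between treated and DMSO samples. It fell with compound 4 (log2 fold change -0.79, SE 0.18, edgeR adjusted p = 0.019) and compound 5 (-0.65, SE 0.18, edgeR adjusted p = 0.022), and its value with compound 6 was -0.63 (SE 0.18, edgeR adjusted p = 0.078). RFC3 (ENSG00000133119, chromosome 13, 33818049 to 33966558, plus strand) measured 55.6 and 50.5 CPM in the controls, against 31.5 and 33.6 under compound 4, 33.8 and 39.4 under compound 5 and 50.7 and 32.3 under compound 6. Its compound 6 samples straddled most of the range between the groups, and it was the single case of overlap with DMSO among the 10 genes. RFC3 fell with compound 4 (log2 fold change -0.70, SE 0.18, edgeR adjusted p = 0.032). It lay just outside the cutoff with compound 5 (-0.53, SE 0.18, edgeR adjusted p = 0.051) and did not pass with compound 6 (-0.36, SE 0.18, edgeR adjusted p = 0.304).

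RFC2 (ENSG00000049541, chromosome 7, 74231499 to 74254458, minus strand) measured 48.3 and 39.5 CPM in the controls, against 30.01 and 33.9 under compound 4, 25.6 and 31.1 under compound 5 and 34.9 and 24.5 under compound 6. The gap between its DMSO samples was the widest of the 10 genes (0.29 on the log2 scale), and the groups still did not overlap. It fell with compound 5 (log2 fold change -0.63, SE 0.18, edgeR adjusted p = 0.025), and its values of -0.46 for compound 4 and -0.57 for compound 6 were not called (edgeR adjusted p = 0.127 and 0.103). RFC4 (ENSG00000163918, chromosome 3, 186789880 to 186807058, minus strand) measured 43.0 and 41.8 CPM in the controls, against 30.4 and 32.6 under compound 4, 33.2 and 28.4 under compound 5 and 37.6 and 25.5 under compound 6. Its log2 fold changes were close to each other, -0.43, -0.46 and -0.43 for compounds 4, 5 and 6 (SE 0.17 each), and none passed (edgeR adjusted p = 0.126, 0.062 and 0.180), although all treated samples were below both DMSO samples.

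RNASEH2A (ENSG00000104889, chromosome 19, 12806556 to 12815201, plus strand) encodes the catalytic subunit of RNase H2, which cuts RNA paired with DNA and takes part in primer removal. It measured 59.9 and 56.6 CPM in the controls, against 38.3 and 47.0 under compound 4, 32.9 and 40.04 under compound 5 and 53.1 and 39.9 under compound 6. It fell with compound 5 (log2 fold change -0.67, SE 0.16, edgeR adjusted p = 0.011), and its values of -0.45 for compound 4 and -0.33 for compound 6 (SE 0.16 both) were not called (edgeR adjusted p = 0.097 and 0.288). Its counts are uncertain, since other genes share 44.0% of its 31-mers, THSD8 alone 28.6%. THSD8 overlaps it on the same strand and had between 0 and 13 counts per sample. RNASEH2B and RNASEH2C, which encode the accessory subunits of the same enzyme, had small log2 differences under compound 4 (-0.19 and -0.13) and compound 6 (0.04 and -0.23). Under compound 5 they had values of -0.33 and -0.55, and RNASEH2C was called (edgeR adjusted p = 0.017), the single call among these 6.

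DNA2 (ENSG00000138346, chromosome 10, 68414064 to 68472121, minus strand), a nuclease and helicase that cuts long flaps, was the least abundant member per kb of transcript. It measured 20.6 and 20.7 CPM in the controls, against 10.4 and 12.4 under compound 4, 13.9 and 13.4 under compound 5 and 17 and 11.9 under compound 6. The groups did not overlap, and the lowest of the 8 samples was replicate 1 of compound 4. DNA2 fell with compound 4 by 44.6% (log2 fold change -0.85, SE 0.18, edgeR adjusted p = 0.011) and with compound 5 by 33.8% (-0.59, SE 0.17, edgeR adjusted p = 0.027), the latter not called by DESeq2 (adjusted p = 0.091). The value for compound 6 was -0.52 (SE 0.17, edgeR adjusted p = 0.120).

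FEN1 (ENSG00000168496, chromosome 11, 61792637 to 61797244, plus strand), the flap endonuclease that removes short flaps, was the one member with its lowest mean under compound 6. It measured 103 and 96.1 CPM in the controls, against 69.8 and 69.1 under compound 4, 65.4 and 65.9 under compound 5 and 70.7 and 43.9 under compound 6. The samples of compounds 4 and 5 were nearly level within each group, whereas replicate 2 of compound 6 was the lowest of all 8. FEN1 fell with compound 6 by 42.7% (log2 fold change -0.80, SE 0.18, edgeR adjusted p = 0.032) and with compound 5 by 34.0% (-0.60, SE 0.17, edgeR adjusted p = 0.027), and its value with compound 4 was -0.52 (SE 0.17, edgeR adjusted p = 0.079, or 0.042 by DESeq2). FEN1 overlaps FADS2 on the same strand, and 8.4% of its 31-mers are also in other genes, mostly in the pseudogene FEN1P1, which had 0 counts in all 8 samples.

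LIG1 (ENSG00000105486, chromosome 19, 48115445 to 48170603, minus strand), the DNA ligase that joins finished Okazaki fragments, fell with all 3 compounds. It measured 74.2 and 77.4 CPM in the controls, against 39.2 and 45.1 under compound 4, 38.1 and 46.8 under compound 5 and 56.5 and 42.7 under compound 6. All treated samples were below both DMSO samples, and none of its 31-mers occurs in another gene. LIG1 fell by 44.4% with compound 4 (log2 fold change -0.85, SE 0.15, edgeR adjusted p = 0.0059), by 43.9% with compound 5 (-0.83, SE 0.15, edgeR adjusted p = 0.0029) and by 34.7% with compound 6 (-0.62, SE 0.15, edgeR adjusted p = 0.047). With the replicate number as a block, its adjusted p with compound 6 was 0.067, which left FEN1 as the single gene called with that compound.

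Divided by the length of each gene's longest coding transcript in kilobases, the levels kept PCNA first and FEN1 second in all 4 groups. PCNA stood at 303.5 ± 17.8 CPM per kb (SD, n = 2) in the controls, 191 ± 15.4 under compound 4, 142 ± 2.58 under compound 5 and 190.1 ± 60.97 under compound 6, and FEN1 at 43.4 ± 2.13 in the controls. The middle of the order was tight in DMSO, with RFC4 at 29.3 ± 0.58, RFC2 at 25.9 ± 3.67, RFC3 at 22.1 ± 1.52, RNASEH2A at 21.2 ± 0.83, RFC1 at 20.6 ± 1.05 and LIG1 at 19.2 ± 0.57. Neighbours in this order overlapped within their SDs. RFC5 (14.9 ± 0.63) and DNA2 (4.91 ± 0.02) were last in every group, and RFC4 led the loader subunits in every group. RFC1 moved from rank 7 in DMSO to rank 4 with compound 5. The ratio of PCNA to the median loader subunit, per kb, was 13.7 and 13.6 in the controls, against 11.3 and 14.4 under compound 4, 9.30 and 8.15 under compound 5 and 11.3 and 10.2 under compound 6. Both compound 5 samples had the lowest ratios of the 8, and those of compound 4 lay on either side of DMSO.

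The samples of compound 6 did not show these genes at the same level. All 10 were lower in its replicate 2 than in its replicate 1, by 0.31 to 0.69 on the log2 scale (median difference -0.50), while over all tested genes the median difference between these samples was 0.00 and 49.6% of genes were lower in replicate 2. In the other groups the median difference of the 10 genes between replicates was -0.08 (DMSO), 0.15 (compound 4) and 0.13 (compound 5). Set against the DMSO mean, the median log2 difference of the 10 genes was -0.30 in replicate 1 of compound 6 and -0.80 in its replicate 2, with -0.68 and -0.62 for the samples of compound 4 and -0.71 and -0.56 for those of compound 5. The sum of hepatocyte markers also differed most between these samples, and its part was not tested. Without replicate 1 of compound 6, 8 of the 10 genes were called lower with that compound (all but RFC1 and RNASEH2A), and without replicate 2, or without either DMSO sample, 0 were. Over all 13404 tested genes the calls lower with compound 6 numbered 380 without its replicate 1, 9 without its replicate 2, 19 without DMSO replicate 1 and 0 without DMSO replicate 2, so in 3 of these 4 fits hardly any gene was called. With compound 4, 1 gene was called without DMSO replicate 1, 0 without DMSO replicate 2, 3 without compound 4 replicate 1 and 4 without compound 4 replicate 2, where 286, 142, 838 and 539 of all tested genes were called lower. With compound 5, 2 were called without DMSO replicate 1, 3 without DMSO replicate 2, 2 without compound 5 replicate 1 and 5 without compound 5 replicate 2, PCNA and LIG1 among them each time, where 791, 898, 704 and 1016 of all tested genes were called lower. Each of these fits assumes that the lone sample of a group varies as the other groups do.

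**Figure D3:**
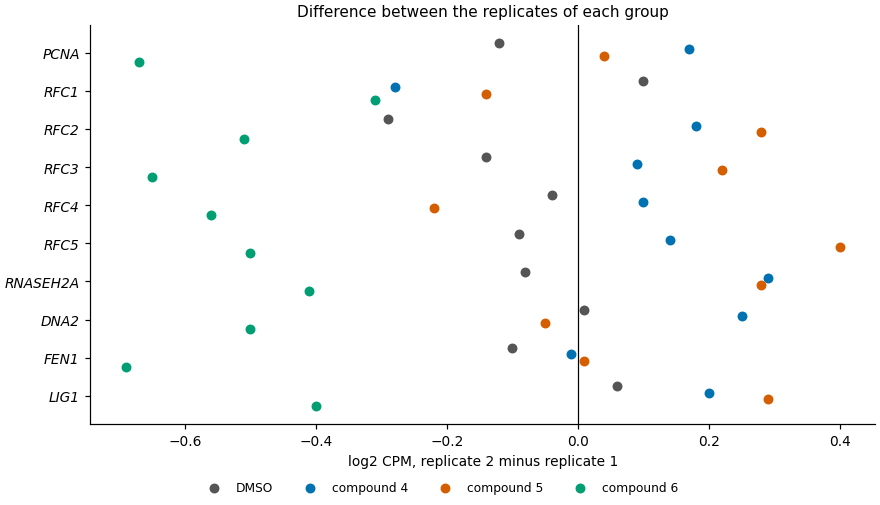
Log2 CPM of replicate 2 minus replicate 1 (horizontal axis) for each of the 10 genes (rows), with 1 point per group in the group's colour. The compound 6 points all lie between -0.69 and -0.31, below 0, whereas those of the other groups lie between -0.29 and 0.40.

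Between compounds, 30 differences (10 genes in 3 pairs of compounds) were tested, each between treatments at their own IC50, and 0 passed the edgeR adjusted p over all genes, while 3 had an unadjusted p under 0.05. Over all tested genes, 13.9% were called between compounds 5 and 4, 9.91% between compounds 5 and 6, and 0.0448% between compounds 4 and 6. PCNA with compound 5 differed from compound 4 by -0.42 on the log2 scale (95% interval -0.81 to -0.03, edgeR adjusted p = 0.128) and from compound 6 by the same -0.42 (-0.81 to -0.03, edgeR adjusted p = 0.156). The latter difference was -0.05 without replicate 1 of compound 6 (edgeR adjusted p = 0.874) and -0.70 without its replicate 2 (edgeR adjusted p = 0.014), which passed the cutoff. RFC1 differed by 0.36 between compounds 5 and 4 (0.06 to 0.66, edgeR adjusted p = 0.102). Between compounds 4 and 6, which share the methylene bridge and differ in the tert-butyl or cyclohexyl groups, PCNA differed by 0.00 (95% interval -0.38 to 0.39) and RFC4 by 0.00 (-0.37 to 0.38), and the largest differences were -0.34 for RFC3 (-0.75 to 0.07) and -0.33 for DNA2 (-0.73 to 0.07). The intervals reached 0.30 to 0.41 on either side of each estimate. These intervals are not adjusted for the number of tests, and the PCNA differences of -0.42, whose intervals left out 0, were not called.

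**Figure D4:**
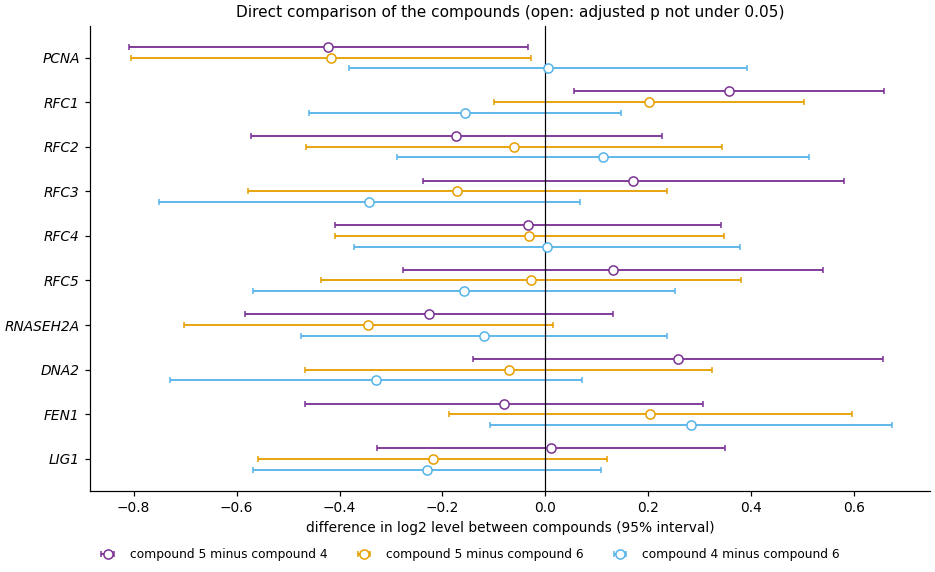
Difference in log2 level between pairs of compounds (horizontal axis) for each gene, with 95% intervals of the edgeR fit. The intervals of PCNA for compound 5 minus compound 4 and minus compound 6 (-0.81 to -0.03 both) and of RFC1 for compound 5 minus compound 4 (0.06 to 0.66) lie to one side of 0, and the other 27 include it.

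Genes around the clamp were described by lists. Other clamps and loaders, 8 genes tested (RAD9B was too low), changed in part. ATAD5, the subunit of the complex that takes PCNA off DNA, measured 27.2 and 29.3 CPM in the controls, against 16.5 and 11.6 under compound 4, 17.6 and 17.4 under compound 5 and 22.7 and 14.5 under compound 6. It fell with compounds 4 and 5 (log2 fold changes -1.01 and -0.69, edgeR adjusted p = 0.013 and 0.032), as did DSCC1, of the alternative loader that acts in sister chromatid cohesion (-0.67 and -0.65, edgeR adjusted p = 0.015 and 0.0085). CHTF8, of the same loader, fell with compound 5 (-0.78, edgeR adjusted p = 0.0022). No other member of this list was called with compounds 4 or 5, and 0 of 8 were called with compound 6, where 3 had an unadjusted p under 0.05 and DESeq2 called 0. Over all tested genes, 5.42%, 14.2% and 1.6% were called lower with compounds 4, 5 and 6. Without either DMSO sample, 0 of the 8 were called lower with compound 4, and with any 1 sample left out 1 to 2 were called lower with compound 5. The medians of this list were -0.24, -0.20 and -0.22 for compounds 4, 5 and 6. With a sample left out they ranged from -0.30 to -0.12, -0.29 to -0.08 and -0.31 to -0.10. RAD17, the loader subunit of the checkpoint clamp, had values of 0.36, 0.31 and 0.40 and was not called in the main fit. With only the groups compared, 1 gene of this list was called higher with compound 5.

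Among 17 lagging-strand partners, 7 fell and 2 rose with compound 4, 12 fell and 1 rose with compound 5, and 1 fell and 1 rose with compound 6. Over all tested genes, 6.5% were called higher with compound 4, 13.9% with compound 5 and 2.8% with compound 6, beside the 5.42%, 14.2% and 1.6% called lower. POLA1, the catalytic subunit of the polymerase that extends primers, fell with compounds 4 and 5 (log2 fold changes -1.05 and -0.52, edgeR adjusted p = 0.0043 and 0.046), the latter call being lost with the replicate block, RLE scaling or DESeq2. POLD3, a subunit of the polymerase that PCNA holds on the lagging strand, fell with the same compounds (-0.87 and -1.06, edgeR adjusted p = 0.023 and 0.0049), and RPA1, which coats single-stranded DNA, fell as well (-0.49 and -0.55, edgeR adjusted p = 0.033 and 0.0096). POLD4, the smallest subunit of the same polymerase, went the other way, with 8.96 and 7.56 CPM in the controls, against 17.4 and 16.9 under compound 4, 12.8 and 14.1 under compound 5 and 12.9 and 21.8 under compound 6. POLD4 rose with each compound (1.06, 0.71 and 1.09, edgeR adjusted p = 0.013, 0.041 and 0.027). The call with compound 5 was lost in all 4 fits that left out a sample, and also with library size alone or upper-quartile scaling. The call with compound 4 was lost without either DMSO sample, and that with compound 6 in 3 of 4 such fits. Other genes share 30% of its 31-mers. RNASEH1, another enzyme that cuts RNA paired with DNA, rose with compound 4 (0.38, edgeR adjusted p = 0.032), a call that was lost with DESeq2, with library-size scaling, with no filter, with only the groups compared and in 3 of the 4 fits that left out a sample, those without either DMSO sample among them. The single call lower with compound 6 was BLM, a helicase of recombination (-0.71, edgeR adjusted p = 0.047), which neither DESeq2 nor the replicate block called.

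Of 19 proteins that bind PCNA or act with it, 9 fell with compound 4, where 5.42% of all tested genes were called lower. With compound 5, 10 fell and 1 rose, where 14.2% of all tested genes were called lower and 13.9% higher. With compound 6, 3 fell, where 1.6% were called lower, or 5 by DESeq2, which called 276 genes lower. The 3 were PCLAF, a small factor bound to PCNA during replication (log2 fold change -0.93, edgeR adjusted p = 0.0062), UHRF1, which brings the maintenance methyltransferase to new DNA (-0.74, edgeR adjusted p = 0.018), and CHAF1A, of the chaperone that places histones behind the fork (-0.47, edgeR adjusted p = 0.043). All of them were also called lower with compounds 4 and 5, with PCLAF at -1.12 and -1.06. Other genes share 40.1% of the 31-mers of PCLAF and 27% of those of UHRF1. KMT5A, a histone methyltransferase degraded on PCNA, was the gene called higher (0.47 with compound 5, edgeR adjusted p = 0.020, not called with library size alone or in 3 of the 4 fits that left out a sample). The medians of this list were -0.38, -0.45 and -0.28 for compounds 4, 5 and 6. The last was -0.46 without replicate 1 of compound 6 and -0.15 without its replicate 2. CDKN1A, whose product p21 binds PCNA and blocks replication, measured 61.3 and 57.0 CPM in the controls, against 73.5 and 78.1 under compound 4, 54.2 and 60.6 under compound 5 and 71.2 and 69.9 under compound 6. Both samples of compounds 4 and 6 were above both DMSO samples. Its log2 fold changes of 0.36, -0.04 and 0.26 were not called (edgeR adjusted p = 0.053, 0.801 and 0.215), although the first was called when at least 10 counts were required in every sample. With each sample left out in turn, the calls of CHTF8, POLD3 and UHRF1 with compound 5 and of PCLAF with compounds 4 and 5 were kept in every fit, and each other call given by name from the lists of loaders, lagging-strand partners and PCNA partners was lost in at least 1.

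The MCM2 to MCM7 helicase, which opens the DNA ahead of the clamp, was counted for comparison. All 6 of its genes fell with compounds 4 and 5 and 2 fell with compound 6, or 5 by DESeq2. Over all tested genes, 5.42%, 14.2% and 1.6% were called lower with compounds 4, 5 and 6, and DESeq2 called 276 lower with compound 6. The medians of the 6 helicase genes were -0.63, -0.77 and -0.53, next to the medians of -0.60, -0.61 and -0.55 of the clamp, loader and maturation genes.

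The genes outside these lists whose pattern was most like the mean of the 10 over the 8 samples were HSDL2, a dehydrogenase-like enzyme (Pearson r = 0.990), POLE3, an accessory subunit of the leading-strand polymerase (0.984), DSN1, of the kinetochore (0.984), ARL6IP1, of the endoplasmic reticulum (0.982), and TK1, the thymidine kinase of replicating cells (0.980). They were taken from 9238 tested genes that averaged 10 CPM or more, and the 8 samples share treatments and libraries. TK1 had means of 137 CPM in DMSO, 66.3 CPM with compound 4, 78.1 CPM with compound 5 and 78.0 CPM with compound 6.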

How the data were processed

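RNA was sequenced in 8 samples. Per the labels and the study's methods, the authors ran FastQC 0.12.0, estimated transcript abundance with Salmon 1.5.0 on GENCODE transcripts (GRCh38), summed it to genes with tximeta and tested with DESeq2 1.38.3. The deposited file holds expected counts, that is, estimated counts per gene written as whole numbers and without normalization. The libraries were strand-specific; whether strand was used in counting is not given in the sources used here. The column names of replicate 1 of compounds 4 and 5 call these samples merged, and do not say what was merged.

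Counts were tested in R 4.3.3 with edgeR 4.0.16 (quasi-likelihood F-test, TMM, filterByExpr, 4 groups, all 8 samples), Benjamini-Hochberg adjustment and a cutoff of 0.05. The procedure was tested on simulated data. Exact permutation tests were left out because the smallest p they allow here is 0.3333. Levels behind correlations and differences between replicates are log2 CPM with a prior count of 2. Alternatives were DESeq2 1.42.0, RLE, upper-quartile and library-size scaling, no filter, at least 10 counts in every sample, a replicate block, only the groups compared, a cutoff of 0.01 and leaving out each sample. The labels number the samples of a group as days, and these numbers served as the block. Deviations of same-numbered samples from their group means correlated at -0.083 to 0.16 between groups, and the block was kept as an alternative.

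All 10 genes are named; of the other lists, genes called with any compound may be named, together with CDKN1A, RAD17, RNASEH2B and the uncalled values of named genes, which were chosen after their values were seen. The genes most like the 10 were the 5 with the highest Pearson correlation. The genes and lists were chosen with earlier results of these data known. Gene positions and 31-mers are from GENCODE 29, an older release than the study's, and gene names matched 41718 of 60230 identifiers.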

Additional observations from a re-analysis of the deposited data

How the results depend on the processing

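Against DMSO, no gene among the 10 changed direction under any alternative or with any sample left out. The size did change, most of all with compound 6. There, leaving out a sample gave log2 fold changes from -1.02 to -0.37 for PCNA, -1.15 to -0.48 for FEN1 and -0.69 to -0.06 for RFC3. The number of the 10 called with compound 4 (6) was 10 with no filter, 1 at a cutoff of 0.01 and 0 to 4 when a replicate was left out. With compound 5 (7) it was 2 at 0.01 and 2 to 5 when a replicate was left out, and with compound 6 (2) it was 5 with no filter, 4 with only the groups compared, 1 with the replicate block, 0 at 0.01 and 0 to 8 when a replicate was left out. The block changed no other call against DMSO among the 10 genes. Counts within a factor of 1.5 of the main count are mostly left out here. With compound 5 these included 9 with no filter, 9 with only the groups compared, 8 with at least 10 counts in every sample and 6 with DESeq2. With compound 6, DESeq2 gave 3. Between compounds (0 called in each pair), no filter gave 2 for compounds 5 and 4 and 1 for compounds 5 and 6, and leaving out a replicate gave 0 to 1 in both. All genes called numbered 1598, 3763 and 590 for compounds 4, 5 and 6 against DMSO, and 1869, 1329 and 6 for compounds 5 and 4, 5 and 6, and 4 and 6. At a cutoff of 0.01 these counts were 591, 1809, 92, 279, 282 and 1. With no filter they were 1441 for compound 6, 2812 for compounds 5 and 4, 2117 for compounds 5 and 6 and 294 for compounds 4 and 6. With only the groups compared they were 897 for compounds 5 and 4 and 2 for compounds 4 and 6, and DESeq2 gave 74 for compounds 4 and 6. With a replicate left out they ranged from 335 to 1662, 1680 to 2139 and 1 to 1001 against DMSO, and from 111 to 2709 (5 and 4), 143 to 1016 (5 and 6) and 0 to 117 (4 and 6). Upper-quartile scaling and library size alone moved the median of all genes with compound 5 to -0.118 and -0.136. They moved the share called higher from 1857 of 3763 to 1449 of 3964 and 1358 of 4076, so the fold changes of compound 5 are best read against that shift. RLE scaling and DESeq2 moved this share the other way, to 2017 of 3799 and 1743 of 2944. Upper-quartile scaling and library size alone both called 9 of the 10 genes. No gene called in the other lists changed sign against DMSO under any alternative. With a replicate left out, calls lower among the 17 lagging-strand partners ranged from 0 to 6, 5 to 8 and 0 to 6 for compounds 4, 5 and 6, those among the 19 PCNA partners from 1 to 8, 4 to 7 and 0 to 7, those among the 6 helicase genes from 0 to 5, 4 to 5 and 0 to 6, those among the 8 other clamps and loaders from 0 to 1, 1 to 2 and 0 to 1, those among the 8 other ligation factors from 0 to 2, 0 to 0 and 0 to 0, and those among the 12 ubiquitin and SUMO factors from 0 to 3, 0 to 1 and 0 to 0. Calls higher ranged from 0 to 2, 0 to 1 and 0 to 1 among the lagging-strand partners, and from 0 to 1 with compound 5 among the PCNA partners.

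Uncalled differences between compounds near 0 changed sign. LIG1 (5 minus 4) was -0.06 with upper-quartile scaling and -0.05 with library size alone, and RFC4 was 0.00 with DESeq2. PCNA and RFC4 (4 minus 6) were 0.00 with RLE scaling, -0.01 with upper-quartile scaling, library size alone and at least 10 counts, and 0.00 and -0.01 with DESeq2. With a replicate left out, the difference of compounds 5 and 4 ranged from -0.15 to 0.17 (LIG1), -0.13 to 0.08 (RFC4) and -0.09 to 0.34 (RFC5), that of compounds 5 and 6 from -0.09 to 0.58 (FEN1), -0.30 to 0.19 (DNA2), -0.28 to 0.21 (RFC2), -0.45 to 0.18 (RFC3), -0.27 to 0.27 (RFC4) and -0.25 to 0.23 (RFC5), and that of compounds 4 and 6 from -0.29 to 0.35 (PCNA), -0.03 to 0.64 (FEN1), -0.13 to 0.36 (RFC2), -0.26 to 0.28 (RFC4), -0.40 to 0.09 (RFC5) and -0.31 to 0.08 (RNASEH2A). The cause of these changes was not tested.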

Other observations

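Of 8 other ligation factors, which join nicks and breaks outside Okazaki fragment maturation, TDP1, which clears trapped topoisomerase from DNA ends, fell with compound 4 (log2 fold change -0.63, edgeR adjusted p = 0.013), XRCC4, the partner of ligase IV, fell with compound 5 (-0.72, edgeR adjusted p = 0.043, not called by DESeq2), and edgeR called 0 with compound 6, where 0 had an unadjusted p under 0.05 and DESeq2 called 0. The call of TDP1 was lost without either DMSO sample, and with compound 5 0 ligation factors were called in any of the 4 fits that left out a sample. LIG3, the ligase of mitochondria and base excision repair, measured 76.7 and 81.9 CPM in the controls, against 69.6 and 67.7 under compound 4, 88.5 and 84.8 under compound 5 and 85.8 and 85.0 under compound 6. Its log2 fold changes of -0.21, 0.13 and 0.11 against DMSO were not called. Between compounds 5 and 4, 1 of the 8 factors was called, higher with compound 5, where 13.9% of all tested genes were called. LIG3 was named after its values were seen. The counts of 1 of 8 with compounds 4 and 5 stand beside 5.42% and 14.2% of all tested genes called lower. The medians of this list were -0.21, -0.14 and -0.17 for compounds 4, 5 and 6.

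Among 12 factors that attach ubiquitin or SUMO to PCNA or remove them, USP1, the protease that takes ubiquitin off PCNA, fell with compound 4 (log2 fold change -0.57, edgeR adjusted p = 0.0046), UBE2V2, of a ubiquitin-conjugating pair, fell with compound 5 (-0.46, edgeR adjusted p = 0.020, not called by DESeq2), and edgeR called 0 with compound 6, where 3 had an unadjusted p under 0.05 and DESeq2 called 0. Without DMSO replicate 2 the call of USP1 was lost, and in 3 of the 4 fits that left out a sample the call of UBE2V2 was lost. The counts of 1 of 12 with compounds 4 and 5 stand beside the same 5.42% and 14.2%. The medians were -0.17, -0.16 and -0.11.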
